A study of Mus musculus with 2 samples.

Results

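Integrins and the other adhesion molecules of the erythroblast surface were described at the RNA level in differentiating mouse erythroid cells. The group holds 10 genes, taken by symbol from a named list that was chosen with earlier results of these data known. They are the integrin alpha subunit genes Itga4, Itga5, Itga6 and Itgal, the integrin beta subunit genes Itgb1 and Itgb2, and Cd44, Cd47, Cd36 and Maea. All 10 were found among the 42462 genes whose identifiers matched the annotation, of which 21474 are protein-coding.

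The data are 2 single-end poly(A) RNA-seq libraries of G1E-ER4, an immortalized mouse erythroid line that the labels call male and postnatal. G1E-ER4 derives from Gata1-null G1E cells and carries GATA-1 fused to an oestrogen receptor hormone-binding domain, so that hormone activates the factor. Both libraries come from cells given 10 nM 17beta-estradiol for 24 hours, form 1 group, and are called biological replicates 1 and 2. The labels place both under 1 biosample record, and nothing says that they came from separate cultures, so the spread between them may be technical. The sources used here do not name the promoter that drives the fusion, and a single line stands for the cell type. No untreated library was analysed here, so every value below is a level in the induced state and none is a change. In bulk RNA, fewer cells that express a gene and less of its RNA per cell cannot be told apart.

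Integrins are heterodimers of an alpha and a beta chain that bind matrix proteins and counter-receptors on other cells. Erythroblasts mature around a central macrophage in the erythroblastic island, where alpha4 beta1 integrin on the erythroblast binds VCAM-1 on the macrophage and also binds fibronectin. Alpha5 beta1 is a fibronectin receptor, alpha6 beta1 a laminin receptor, and alphaL pairs with beta2 to form the leukocyte integrin LFA-1, which binds ICAM proteins. CD44 binds hyaluronan, CD47 signals to SIRPalpha on macrophages and limits phagocytosis, and CD36 is a scavenger and fatty acid receptor. MAEA was described as an erythroblast macrophage attachment protein and is also a RING subunit of the CTLH ubiquitin ligase complex.

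Sequences are shown first for Itgb2 and Cd44, because these junctions are among the features that separate the transcripts whose shares are reported below. They were read from GENCODE M21 transcripts on GRCm38, 5′ to 3′, and capitals mark the bases after the exon junction. For Itgb2, on the plus strand of chromosome 10, the coding transcript Itgb2-201 joins exon 11 (chr10:77557952-77558139) to exon 12 (chr10:77559479-77559723). Itgb2-204 joins the same exon 11 to exon 13 of Itgb2-201 (chr10:77560150-77560372), and its capitals end with the stop codon that it reaches there.
Itgb2-201, exon 11 to exon 12: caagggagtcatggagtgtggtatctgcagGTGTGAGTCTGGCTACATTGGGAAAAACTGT
Itgb2-204, exon 11 to exon 13: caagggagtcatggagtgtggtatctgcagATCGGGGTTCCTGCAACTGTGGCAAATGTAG
exon 12 of Itgb2-201, absent from Itgb2-204: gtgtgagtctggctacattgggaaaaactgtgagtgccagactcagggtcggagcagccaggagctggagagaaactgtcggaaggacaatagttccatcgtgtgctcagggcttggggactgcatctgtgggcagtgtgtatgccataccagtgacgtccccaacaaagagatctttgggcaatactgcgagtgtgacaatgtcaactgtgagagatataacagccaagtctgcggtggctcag

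The skipped exon has 245 bases, which leaves a remainder of 2 on division by 3, so the reading frame shifts after exon 11. The stop codon ends 31 bases into exon 13, and the annotated coding sequence is 480 codons in Itgb2-204 against 770 in Itgb2-201. GENCODE places Itgb2-204 in its nonsense-mediated decay class, the class of transcripts with a stop codon upstream of a later exon junction.

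For Cd44, on the minus strand of chromosome 2, 3 coding transcripts leave the same constant exon (chr2:102853015-102853236) for different next exons. Cd44-203 joins it to the next constant exon (chr2:102828542-102828610), and Cd44-207 and Cd44-206 join it to variable exons (chr2:102842261-102842377 and chr2:102831330-102831536).
Cd44-203, no variable exon: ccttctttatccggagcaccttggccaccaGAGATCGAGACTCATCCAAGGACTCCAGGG
Cd44-207, first of 5 variable exons: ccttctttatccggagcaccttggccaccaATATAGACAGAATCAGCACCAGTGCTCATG
Cd44-206, its 1 variable exon: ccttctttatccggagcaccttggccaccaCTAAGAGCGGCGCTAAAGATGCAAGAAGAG

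The libraries held 20412826 (replicate 1) and 18564086 (replicate 2) expected counts. Expected counts are estimates that divide a read among the places it fits. TPM, a length-scaled abundance, divides them by length and scales each library to the same total, so levels of different genes are compared below in TPM or, where a gene had few reads, in counts per effective length. The erythroid identity was checked with 8 genes including Slc4a1, Klf1 and Alas2, and 8 of 8 reached at least 1 TPM in each library, the level called detected here. Of 10 leukocyte and stromal genes 0 were detected, and their summed level was 0.58 and 0.39 TPM.

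Of the 10 adhesion genes 6 were detected, beside 41.2% of all protein-coding genes. In order of level these were Maea, Cd47, Itgb1, Itgb2, Itga4 and Cd44. Itgal, Itga6, Itga5 and Cd36 were below the threshold. None of the 10 had a mean of 100 TPM or more, a level that only 1247 of all 21474 protein-coding genes reached. The median of their mean levels was 8.36 TPM, beside 0.08 TPM over all protein-coding genes.

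**Figure D1:**
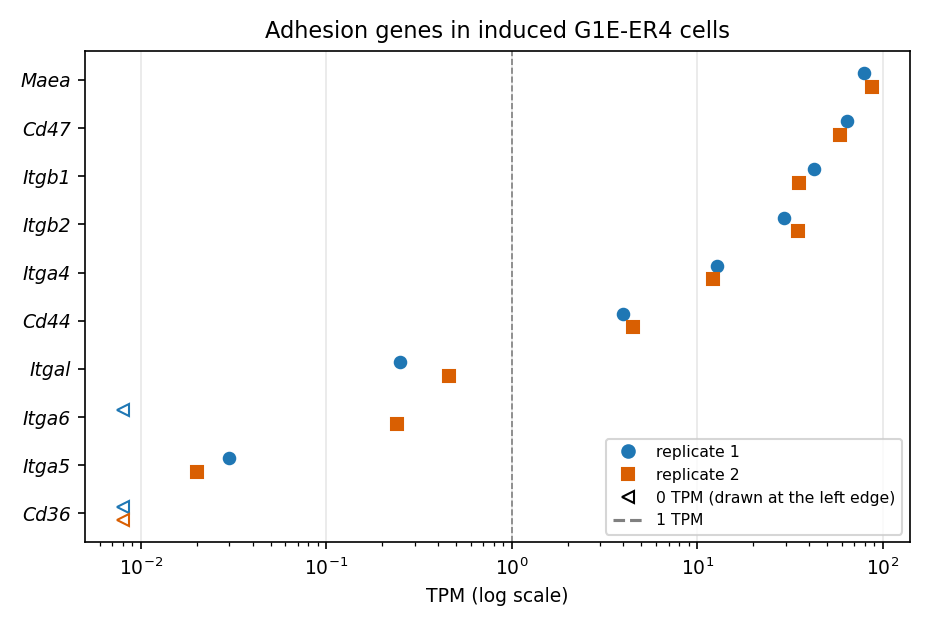
TPM of the 10 adhesion genes on a logarithmic axis, 1 point per library, ordered by mean, with libraries at 0 TPM drawn as open triangles at the left edge. The 6 detected genes lie right of the 1 TPM line in both libraries, from Cd44 at 3.99 and 4.53 TPM to Maea at 79.42 and 87.84 TPM, and Cd36 is at 0 in both.

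Among the 4 alpha subunit members Itga4 was the one detected. Itga4 (ENSMUSG00000027009, chr2:79255426-79333123, plus strand), the alpha4 chain, stood at 12.7 TPM in replicate 1 and 12.22 TPM in replicate 2, or 12.5 ± 0.339 TPM (SD, n = 2), from 1666 and 1314 expected counts. It exceeded 73.8% of protein-coding genes. The 3′ end of Itga4 overlaps Cerkl on the other strand by 2581 bases. Whether reads were assigned by strand is not given in the sources used here. Cerkl itself was listed at 1 and 19.4 counts, few beside those of Itga4.

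The 3 other alpha members were below 1 TPM in both libraries, and of these Itga6 and Itga5 were near or at the counting floor. Itgal (ENSMUSG00000030830, chr7:127296260-127335138, plus strand), the alphaL chain, was at 0.25 and 0.46 TPM from 19 and 31 counts. Itga6 (ENSMUSG00000027111, chr2:71745616-71858416, plus strand), the alpha6 chain, had 0 counts in replicate 1 and 4 in replicate 2, or 0 and 0.24 TPM. Itga5 (ENSMUSG00000000555, chr15:103344286-103366763, minus strand), the alpha5 chain, had 2 and 1 counts, or 0.03 and 0.02 TPM. The library ranges of Itga6 and Itga5 overlapped, so their order is not resolved, and no ratio between them is given.

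Itga4 was set against each of the other alpha members. Against Itgal the log2 TPM ratio was 5.67 in replicate 1 and 4.73 in replicate 2, a mean of 5.20 ± 0.66 (SD, n = 2) or 36.7-fold. In counts per effective length Itga4 was 442-fold (95% exact interval 122 to 3656) above Itga5 in replicate 1 and 776-fold (139 to 30673) in replicate 2. Itga4 was 51.0-fold (19.9 to 188) above Itga6 in replicate 2, at the effective length listed there. No fold is given for replicate 1, where Itga6 had no read and another effective length, so that 3 counts of it would be 0.0850 TPM there and 0.180 TPM in replicate 2. These intervals cover counting error only, and they are wide because the lower gene had few reads.

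Both beta members were detected, and both were above Itga4 with all transcripts counted. Itgb1 (ENSMUSG00000025809, chr8:128685654-128733200, plus strand), the beta1 chain shared by the alpha4, alpha5 and alpha6 receptors, was at 42.34 and 35.17 TPM, or 38.8 ± 5.07 TPM (SD, n = 2), from 2568 and 1935 counts. Itgb2 (ENSMUSG00000000290, chr10:77530252-77565708, plus strand), the beta2 chain of leukocyte integrins, was at 29.25 and 34.84 TPM, or 32.0 ± 3.95 TPM, from 1206 and 1210 counts. The lowest Itgb1 value was 35.17 TPM and the highest Itgb2 value 34.84 TPM, so the ranges only just missed each other. The log2 ratio of Itgb1 to Itgb2 was 0.53 and 0.01, a mean of 0.27 ± 0.37 that is smaller than its own spread.

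The beta to alpha ratios within the receptors were unequal. Itgb1 exceeded Itga4 by 1.74 and 1.53 on the log2 scale, a mean of 1.63 ± 0.15 (SD, n = 2) or 3.10-fold. Itgb2 exceeded its partner gene Itgal by 6.87 and 6.24, a mean of 6.56 ± 0.44 or 94.1-fold. With protein-coding transcripts alone this ratio was 4.90 ± 0.22, or 29.8-fold. The other known alpha partners of beta2 were also low, Itgam at 0.48 and 0.52 TPM and Itgax and Itgad at 0 in both libraries. With Itgal included, 0 of 4 were detected, beside 41.2% of all protein-coding genes. Together these 4 summed to 0.73 and 0.98 TPM. This partner set was put together after the values had been seen.

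Most Itgb2 TPM lay on a transcript that lacks a coding exon. Itgb2-204, the exon-12-skipping transcript whose junction is printed above, took 66.01% of the gene's TPM in replicate 1 and 60.43% in replicate 2, a mean of 63.2% ± 3.95 (SD, n = 2). The coding transcript Itgb2-201 held 24.03% and 22.57%, or 23.3% ± 1.03. Both libraries had the same order, and the 2 shares did not overlap.

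Expected counts gave the same order for this gene, whose transcripts Itgb2-204 and Itgb2-201 have 2619 and 2970 bases. Itgb2-204 had 800 and 795 expected counts, against 331 and 337 for Itgb2-201. Together with Itgb2-205, at 5.58% and 4.26%, the nonsense-mediated decay class held 71.59% and 64.69% of the gene's TPM. Counting only transcripts that GENCODE M21 types as protein-coding, Itgb2 was at 8.31 and 12.3 TPM, or 10.3 ± 2.82 TPM, and the log2 ratio of Itgb1 to Itgb2 was 1.93. On that scale the Itgb2 range overlapped that of Itga4, at 10.03 and 8.45 TPM, so Itgb2 was not above Itga4 beyond the spread.

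The Itgb2 division rests on few distinguishing positions. Of the 2584 windows of 36 bases, the read length, in Itgb2-204, 54 occur in no other transcript, beside 372 of 2935 in Itgb2-201. The rest of the division is inferred by the quantifier from shared reads. Itgb2-203, a coding fragment of 364 bases, was listed at 0% in replicate 1 and 9.36% in replicate 2.

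**Figure D2:**
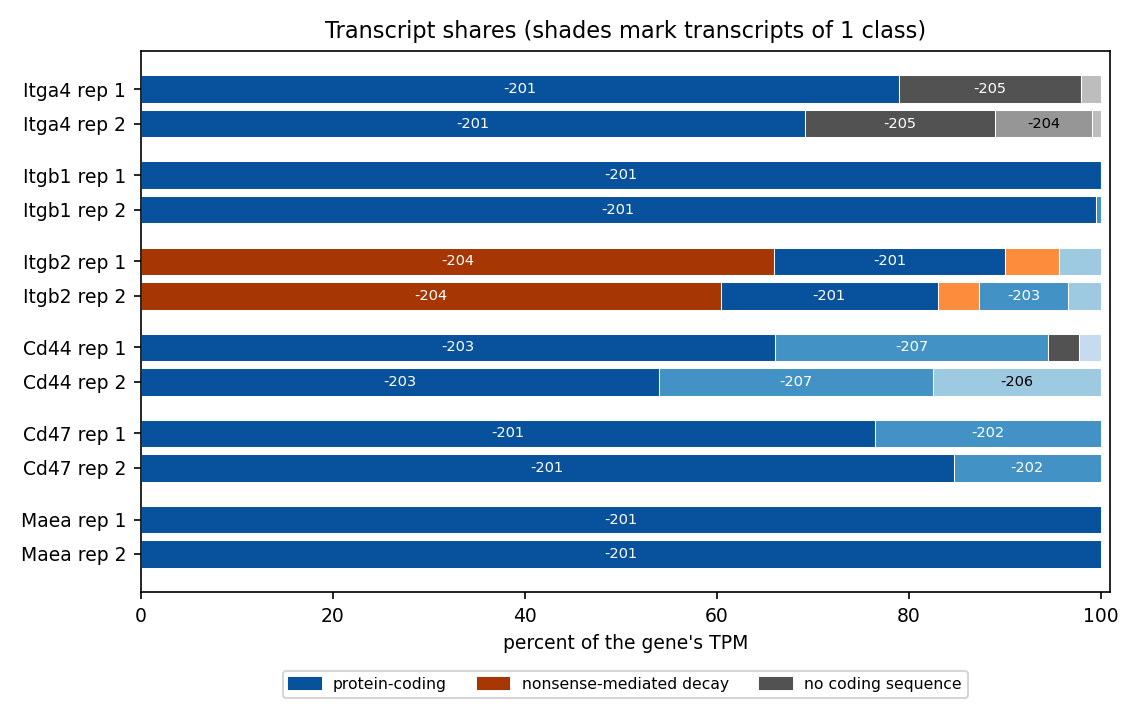
Percent of each gene's TPM on each annotated transcript for the 6 genes that had 20 or more expected counts in each library, 1 bar per library, coloured by transcript class, with the transcript number written in the larger segments. The nonsense-mediated decay class fills most of Itgb2, with 66.01% and 60.43% on Itgb2-204 alone, and Itgb1 and Maea are nearly or wholly on 1 transcript.

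Most expected counts of Itga4 and of Itgb1 were assigned to 1 coding transcript of each gene. Itga4-201, the coding transcript of 1032 codons, held 78.99% and 69.14% of Itga4 TPM and 92.7% ± 1.77 (SD, n = 2) of its expected counts. Itga4-205, a short transcript without coding sequence whose last exon runs 1553 bases past the end of exon 2, held 18.92% and 19.79% of TPM but 5.70% ± 0.606 of counts. Its larger share in TPM comes with its length of 2314 bases, against 9767 for Itga4-201. Itga4-204, another transcript without coding sequence, was listed at 0% and 10.19%, from 0 and 26.8 counts. From coding transcripts alone Itga4 was at 9.24 ± 1.12 TPM. Itgb1-201 held 100% and 99.49% of Itgb1.

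The other integrin subunit genes place these members in the whole family. Over 18 alpha and 8 beta genes, 8 of 26 were detected, 4 of each kind, beside 41.2% of all protein-coding genes. Beside Itga4 the detected alpha genes were Itga7, a laminin-binding chain, at 7.345 ± 0.219 TPM (SD, n = 2), Itgav, the vitronectin receptor chain, at 5.725 ± 1.44 TPM, and Itga2b, the platelet chain, at 3.875 ± 0.389 TPM. Itga4 held 39.7% ± 3.75 of the summed alpha TPM, the largest share of the alpha genes. With protein-coding transcripts alone it held 38.5% ± 5.75, while Itga2b was under the threshold at 0.41 and 0.18 TPM, which left 7 of 26 detected.

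With all transcripts counted, Itgb1 and Itgb2 were also the highest of the beta genes. Itgb1 held 42.2% ± 6.21 (SD, n = 2) of the summed beta TPM and Itgb2 34.8% ± 3.72. Itgb7, whose product also pairs with alpha4, followed at 19.3 ± 2.29 TPM, and Itgb3, the partner of the Itga2b and Itgav products, at 1.79 ± 0.283 TPM. With protein-coding transcripts alone Itgb1 held 55.2% ± 7.48, but Itgb7 came before Itgb2 in both libraries, with 27.5% ± 3.12 against 14.7% ± 3.94. Summed over each chain, beta exceeded alpha by 1.55 ± 0.07 on the log2 scale, and by 1.54 ± 0.03 with coding transcripts alone. These sums were also formed after the values had been seen.

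**Figure D3:**
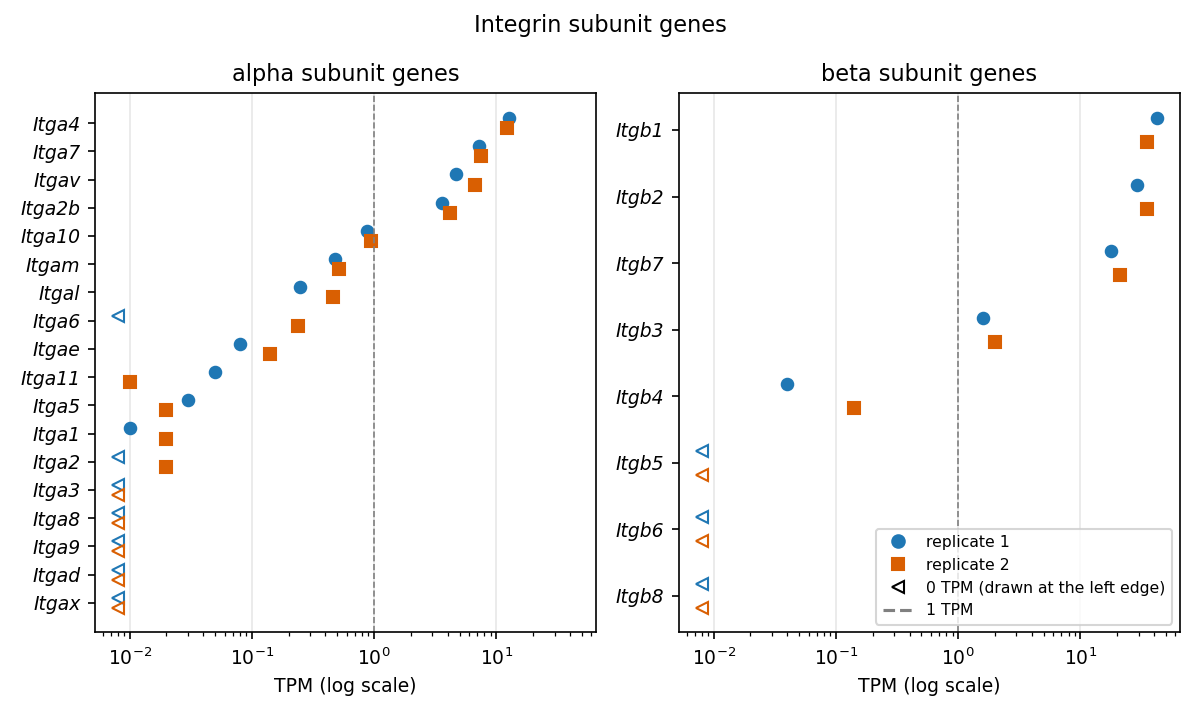
TPM of the 18 alpha and 8 beta integrin subunit genes on logarithmic axes, 1 point per library, with libraries at 0 TPM drawn as open triangles at the left edge. The 4 detected genes of each kind lie right of the 1 TPM line in both libraries, with all transcripts counted, led by Itga4 at 12.7 and 12.22 TPM and Itgb1 at 42.34 and 35.17 TPM.

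Of the genes that act on integrins from inside the cell, 16 of 25 were detected, with a median of 15.3 TPM. This was 64%, beside 41.2% of all protein-coding genes. Fermt3, the kindlin of blood cells that activates beta chains, was at 410 ± 23.5 TPM (SD, n = 2), and Tln1, the talin that links beta tails to actin, at 104 ± 7.14 TPM. Sharpin, which encodes an integrin inhibitor, was at 148 ± 5.30 TPM. Ilk, the integrin-linked kinase gene, was listed at 105 ± 2.04 TPM, but only 24.0% of its 36-base windows are found in no other gene, so its level is uncertain. Fermt2, the kindlin gene of many other tissues, had 0 counts in both libraries.

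Membrane partners of integrins gave 7 of 11 detected (63.6%, beside 41.2% of all protein-coding genes), with a median of 53.5 TPM. Bsg, which encodes basigin, was at 632 ± 7.82 TPM, Tspan32 at 242 ± 51.7 TPM, Tspan33 at 224 ± 14.4 TPM and Slc3a2, the CD98 heavy chain gene, at 109 ± 6.05 TPM. The tetraspanin genes Cd9, Cd53, Cd63 and Cd82 had 0 counts in both libraries.

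Of the ligands and counter-receptors of the members, 6 of 17 were detected, with a median of 0.025 TPM. This was 35.3%, beside 41.2% of all protein-coding genes. Vcam1, which encodes the island ligand of alpha4 beta1, and Sirpa, which encodes the CD47 receptor, had 0 counts in both libraries. Fn1, the fibronectin gene, was at 3.35 and 4.6 TPM, and the laminin chain genes Lama5 and Lamc1 were at 31.5 ± 5.78 and 21.3 ± 2.21 TPM (SD, n = 2) while Lamb1 had 2 and 0 counts. Icam2, which encodes a ligand of LFA-1, was at 39.8 ± 3.56 TPM. Icam4, a red cell ICAM gene, was listed at 62.3 ± 1.87 TPM with only 7.37% of its windows in no other gene, so its level is uncertain.

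Markers of the island macrophage were mostly at 0, and their part in the member levels was not tested. Of 12 markers 1 was detected (8.33%, beside 41.2% of all protein-coding genes), Cd68 at 2.76 and 3.51 TPM. In both libraries 8 of the 12 had 0 counts, Adgre1, Mrc1, Cd163 and C1qa among them, beside 8572 of all 21474 protein-coding genes. The summed level of all 12 was 3.29 TPM in replicate 1 and 4.07 TPM in replicate 2.

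Cd44 (ENSMUSG00000005087, chr2:102811141-102901665, minus strand), the hyaluronan receptor gene, was the lowest of the detected members at 3.99 and 4.53 TPM, or 4.26 ± 0.382 TPM (SD, n = 2), from 222 and 210 counts. Its range stayed below that of Itga4 and above that of Itgal. Genes of CD44 linkers and hyaluronan binding gave 8 of 11 detected, with a median of 40.3 TPM. This was 72.7%, beside 41.2% of all protein-coding genes. The linker genes Ank1 (ankyrin, 404 ± 23.0 TPM) and Ezr (ezrin, 360 ± 51.1 TPM) were the highest, followed by Rdx at 57.0 ± 6.53 TPM and Nf2 at 49.25 ± 1.61 TPM.

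The largest Cd44 share fell on the form without variable exons. Cd44-203, whose junction of 2 constant exons is printed above, held 66.11% and 53.94% of Cd44 TPM, or 60.0% ± 8.61 (SD, n = 2). Cd44-207, with 5 variable exons of 636 bases in all, held 28.38% and 28.56%. Cd44-206, with 1 variable exon, was listed at 0% and 17.5%, from 0 and 14.7 counts.

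The forms of Cd44 differ in more than the variable exons. The last exon of Cd44-207 is 1406 bases longer than that of Cd44-203, so a read from that stretch fits Cd44-207 and not Cd44-203. By expected counts the shares were closer, 50.8% for Cd44-203 and 43.1% for Cd44-207. Windows found in no other transcript numbered 34 in Cd44-203 and 106 in Cd44-207.

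Cd47 (ENSMUSG00000055447, chr16:49800533-49915010, plus strand) was the second highest member. It was at 64.46 and 58.6 TPM, or 61.5 ± 4.14 TPM (SD, n = 2), from 4349 and 3910 counts, and exceeded 91.0% of protein-coding genes. Per length Cd47 exceeded Cd44 by 4.01 and 3.69 on the log2 scale, a mean of 3.85 ± 0.23 or 14.5-fold. Genes for its partners in the red cell membrane were detected in 6 of 6 cases, beside 41.2% of all protein-coding genes. Their median was 188 TPM. Among them were the band 3 gene Slc4a1 at 600 ± 31.4 TPM and the protein 4.1 gene Epb41 at 289 ± 9.81 TPM. Others were Ank1, and Rhag, the Rh-associated glycoprotein gene, at 87.1 ± 1.64 TPM.

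Cd47 lay mostly on 1 transcript. Cd47-201 held 76.49% and 84.66% of TPM and 96.3% of expected counts, and Cd47-202 held 23.51% and 15.34% of TPM but 3.72% of counts. Cd47-202 was quantified at 867 bases where GENCODE M21 gives 1175, so its exons as quantified are not known here. GENCODE M21 also lists Cd47 transcripts that are not in the quantified tables.

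Cd36 (ENSMUSG00000002944, chr5:17781690-17888801, minus strand) had 0 counts in both libraries. A count of 0 allows up to 3 counts, which at the effective length listed for this gene would be 0.0541 TPM in replicate 1 and 0.0594 TPM in replicate 2. Cd44 was at least 73.7-fold and at least 76.3-fold higher against that floor in each library. All of the 36-base windows of Cd36 in GENCODE M21 are found in no other gene. Some of its transcripts were quantified at greater lengths, such as 1 at 3566 bases against 2677 there. Their extra bases were not checked.

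Genes linked to CD36 in lipid uptake were detected in 10 of 16 cases (62.5%, beside 41.2% of all protein-coding genes). Their median was 3.91 TPM, and 6 of the 10 reached 5 TPM. Fabp5, a fatty acid binding protein gene, was at 114 ± 1.17 TPM (SD, n = 2), and Scarb1, a scavenger receptor gene of the same class as Cd36, at 97.7 ± 9.52 TPM. Acsl1, which encodes an enzyme that activates fatty acids, was at 38.3 ± 3.10 TPM and Scarb2 at 15.4 ± 1.77 TPM.

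Maea (ENSMUSG00000079562, chr5:33335509-33373296, plus strand) was the highest member. It was at 79.42 and 87.84 TPM, or 83.6 ± 5.95 TPM (SD, n = 2), from 2667 and 2687 counts, and exceeded 93.2% of protein-coding genes. Its range did not overlap that of Cd47. Its 1 listed transcript holds 100% of the gene by construction.

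The genes of the CTLH complex were detected throughout, 11 of 11, beside 41.2% of all protein-coding genes, with a median of 22.2 TPM. Maea lay among the upper members, below the scaffold gene Ranbp10 at 148 ± 16.1 TPM, Gid8 at 143 ± 3.92 TPM and Mkln1 at 111 ± 3.63 TPM. Wdr26, at 70.09 and 91.9 TPM, had a range that contained both Maea values. Rmnd5a, the gene of a RING partner of MAEA, was at 19.38 and 18.26 TPM. Maea exceeded Rmnd5a by 2.03 and 2.27 on the log2 scale, a mean of 2.15 ± 0.16 or 4.44-fold. Rmnd5b, another gene of the complex, was above Rmnd5a in both libraries, at 25.12 and 31.62 TPM, so Maea exceeded Rmnd5b by less.

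**Figure D4:**
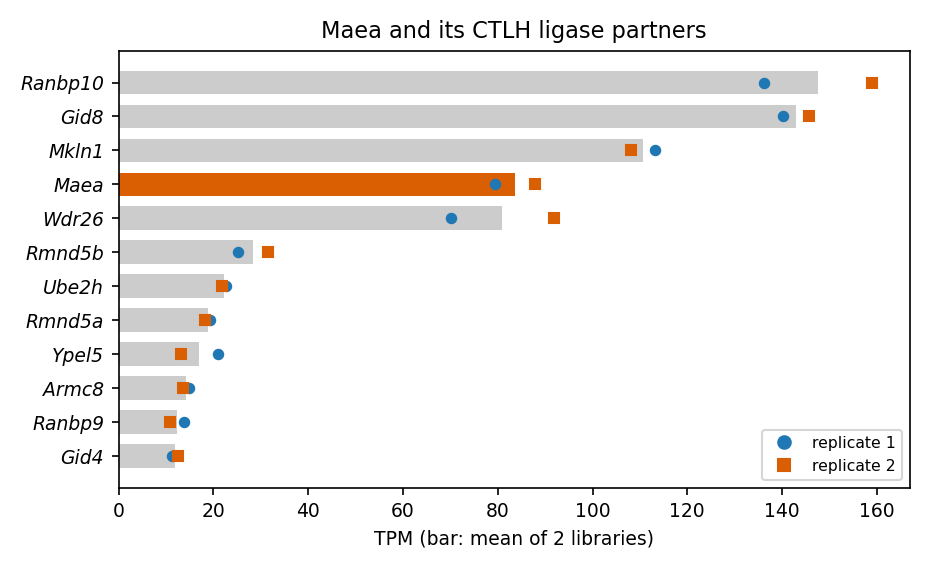
TPM of Maea and the 11 other CTLH ligase genes on a linear axis, with bars for the mean of the 2 libraries and points for each library. Maea, at 79.42 and 87.84 TPM, is the fourth highest, and Rmnd5a lies at 19.38 and 18.26 TPM.

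A list of other adhesion and surface genes, not all specific to red cells, gave 6 of 15 detected, with a median of 0.275 TPM. This was 40%, beside 41.2% of all protein-coding genes. Cd24a, the heat-stable antigen gene, was at 242 ± 14.9 TPM (SD, n = 2), and Cd99l2 at 25.2 ± 1.00 TPM. Bcam, Epcam, Emb and Cd34 had 0 counts in both libraries. Over all lists but the members, 80 of 157 different genes were detected, beside 41.2% of all protein-coding genes. This total includes the erythroid and the leukocyte and stromal genes used to check identity, so it does not describe adhesion genes alone.

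The replicates differed little for the members. For 6 members the counts averaged 50 or more, and 0 of these differed over 2-fold in TPM, beside 1.19% of the 9308 genes with as many counts. The share was 3.65% among 11296 genes averaging 10 counts or more. The log2 ratio of replicate 1 to replicate 2 was 0.06 for Itga4, 0.27 for Itgb1, -0.25 for Itgb2, -0.18 for Cd44, 0.14 for Cd47 and -0.15 for Maea, where the median size over the 9308 genes was 0.16. Itgb1 and Itgb2 thus moved in opposite directions between the libraries, Itgb1 by more than 72.7% and Itgb2 by more than 70.2% of those genes.

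Counting error alone covered the difference for some members. The ratio of counts scaled to library total (CPM) was 1.01 (95% exact interval 0.969 to 1.06) for Cd47 and 0.961 (0.792 to 1.17) for Cd44, and both intervals hold 1. It was 1.21 (1.14 to 1.28) for Itgb1, 1.15 (1.07 to 1.24) for Itga4, 0.906 (0.836 to 0.982) for Itgb2 and 0.903 (0.855 to 0.953) for Maea, and these 4 do not. For Itga4 the log2 ratio was only 0.06 in TPM, which also depends on the lengths of the transcripts given reads. Its coding transcripts alone were at 10.03 and 8.45 TPM.

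**Figure D5:**
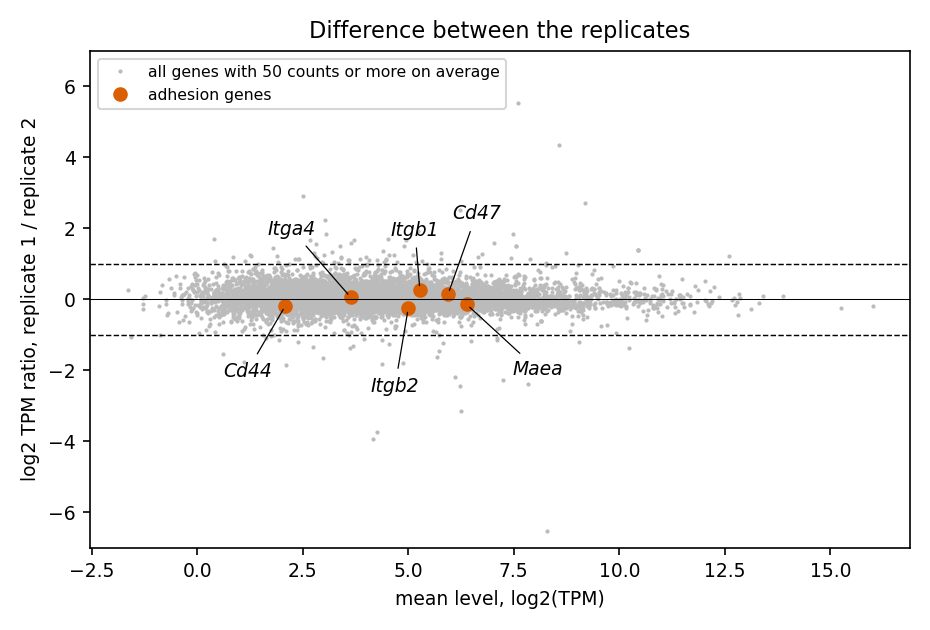
Log2 TPM ratio of replicate 1 to replicate 2 against mean level for 9308 genes with at least 50 counts on average, with the 6 adhesion genes in orange and dashed lines at 2-fold. The 6 lie between -0.25 for Itgb2 and 0.27 for Itgb1, inside the lines.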

How the data were processed

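Poly(A) RNA was measured in 2 G1E-ER4 libraries. Per the deposited manifests, reads were quantified on mm10 with GENCODE M4. The aligner is not given in the sources used here, nor is the quantifier. The authors' tables hold, per the file headers, an expected count and TPM per gene and transcript, a posterior mean TPM, and the percent of a gene's TPM on each transcript. Expected counts totalled 20412826 and 18564086, so 3 counts equal 0.147 and 0.162 CPM. Intervals (exact Clopper-Pearson, 95%) and floors cover counting error only. Reads are 36 bases, from length minus effective length.

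Symbols, transcript types and coordinates came from GENCODE M21, the same assembly, which matched 42462 of 69691 rows and 99.8% of counts. Rows without an annotated gene were left out. Detection meant 1 TPM or more in both libraries, and isoform shares needed 20 counts in both. Expected counts were rounded only for intervals and scaling. A log2 ratio was computed from the deposited TPM within each library. With 1 group no test was made, since a sign-flip test over 2 libraries cannot go below 0.5. TMM (edgeR 4.0.16) and DESeq2 1.42.0 were used for scaling alternatives alone, in R 4.3.3. Only a 2-fold comparison of replicates was tried on simulated counts, which held counting error alone. The other steps were not tried on simulated data. Other tools were Python 3.11.15, pandas 2.3.3 and scipy 1.17.1.

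The members and lists were chosen with earlier results of these data known. Named genes are all members, up to 4 detected genes of highest mean TPM per list, all detected integrin subunits, and, for the 6 members with enough counts, transcripts with 5% or more of the gene in either library. Chain shares from coding transcripts were added after seeing the data. A gene that this rule takes is not reported here. Genes named at or near 0, Cerkl and Rmnd5b were chosen after their values were seen. Alternatives were posterior mean TPM, expected counts, coding transcripts only, other detection thresholds, a pseudocount of 1 and leaving out each library.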

Additional observations from a re-analysis of the deposited data

How the results depend on the processing

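No ratio, as a mean over the libraries used, changed sign under any alternative. Within replicate 2, posterior mean TPM put Itgb1 (33.47) just below Itgb2 (33.65), the reverse of their order by TPM. Detected members numbered 6 at 0.5 TPM, 5 at 5 TPM and 7 at 10 counts or more, against 6. Detected genes of all other lists, those of the identity check included, numbered 84 at 0.5 TPM and 69 at 5 TPM, against 80. At 5 TPM the lists of other alpha subunits, other beta subunits, CD36-linked genes and macrophage markers held 1, 1, 6 and 0 detected genes, against 3, 2, 10 and 1, and posterior mean TPM gave 2 macrophage markers. The share of all protein-coding genes was computed at 1 TPM only, so these counts have no background beside them and are not read as a result about the genes. Relative to the order by TPM, 4 members changed rank with posterior mean TPM and 4 with expected counts, 2 with coding transcripts alone, and 0 to 2 with either library left out. Not divided by length, the log2 ratios were 5.93 for Itga4 over Itgal, 0.88 for Itgb1 over Itgb2, 0.59 for Itgb1 over Itga4, 5.64 for Itgb2 over Itgal, 4.26 for Cd47 over Cd44 and 0.87 for Maea over Rmnd5a. With coding transcripts alone they were 1.93 for Itgb1 over Itgb2, 2.07 for Itgb1 over Itga4 and 4.90 for Itgb2 over Itgal. With log2(TPM + 1) they were 3.32 for Itga4 over Itgal, 4.61 for Itgb2 over Itgal and 3.57 for Cd47 over Cd44. By share of expected counts, 2 members in place of 4 had a leading transcript at 90% or less, and by the posterior mean Itgb2-204 held 58.2%. The posterior mean adds a prior count, which raises genes near 0. Itga5, Itga6 and Cd36 had at most 4 counts, so their order is limited by depth. The 36-base reads limit the transcript shares.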
